A study of Mus musculus with 6 samples.

Results

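Plasma cells are the antibody-secreting end stage of the B cell lineage, and 54 of them were found among the 88669 lung cell barcodes that passed the quality limits in 6 single-cell RNA libraries (0.0609%, exact 95% binomial interval 0.0458 to 0.0795%, which covers counting error only). A barcode was taken as a plasma cell when it held at least 300 genes, at least 1000 UMIs (unique molecular identifiers, each standing for 1 counted RNA molecule), at most 15% mitochondrial UMIs, at least 20 UMIs of Jchain, at least 5 of Xbp1, at least 5 of Mzb1, and none of Ms4a1, Cd3e or Cdh5. The cells were chosen by the measured counts of these 6 genes, so the levels of those genes are given below as a description and support nothing.

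The libraries came from lungs of male C57BL/6 mice aged 21 months, with 1 library per mouse per the labels. Mice of genotype p16-CreERT2/R26-LSL-DTR gave 3 libraries, named p16-DTR here as in the labels. In them a tamoxifen-activated Cre driven from the p16 gene (Cdkn2a) switches on the diphtheria toxin receptor in cells that express p16. The 3 control libraries came from p16-CreERT2 mice, which carry the Cre and lack the receptor allele. Both groups received tamoxifen on 5 days and, after 2 weeks, diphtheria toxin on 5 days, and the lungs were taken 2 weeks later. There was thus no group without Cre, tamoxifen or toxin, and a cell that began to express p16 after the tamoxifen would not carry the receptor. For each library 20000 sorted CD45-negative cells were mixed with 9000 sorted CD45-positive cells, so a share of barcodes is a share of that mixture and not of the lung. The labels name separate mice but no litter or day. The p-values of group comparisons below measure the spread between these 6 libraries. Those between antibody classes measure the spread of differences within mice, over the mice of each fit.

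In a B cell that turns into a plasma cell, the transcription factors Irf4 and Prdm1 shut down the B cell program, and Xbp1 expands the endoplasmic reticulum (ER) that folds and exports antibody. Antibody classes differ in the constant region of the heavy chain: IgM is the class made before switching, and IgA is the class of mucosal surfaces such as the airways, where the joining chain Jchain links IgA or IgM units into polymers that are carried across the epithelium. Plasma cells persist in niches through receptors for survival factors, among them Tnfrsf17 (BCMA), and reach mucosal tissue through chemokine receptors such as Ccr10 and Ccr9 and through the integrin made of Itga4 and Itgb7.

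The plasma cells were few and deeply sequenced. The libraries held 254200305 to 344421685 UMIs and 12672 to 16433 kept barcodes each, and a plasma cell held a median of 59153.5 UMIs (7701 to 110916) and 5315.5 detected genes (2493 to 8329), with 1.22% mitochondrial UMIs. The lowest Jchain count inside the limit was 26 UMIs and the next 69, and the highest count of a barcode excluded by Jchain alone was 9. For Xbp1 the lowest inside was 7 and the highest outside 2, and for Mzb1 the corresponding counts were 6 and 3. The limits on the absent genes were tighter: 80 further barcodes failed by Ms4a1 alone, 20 of them with 1 UMI, and 19 failed by Cdh5 alone, 13 with 1 UMI. Jchain itself was seen in 3.56% of the 27225 endothelial barcodes (Cdh5 and Pecam1 at 3 UMIs or more), and the source of such UMIs was not tested. A wider set that allowed 1 UMI of each of the 3 absent genes held 92 cells and is used where it is named. Between 45 and 85 barcodes were shared by any pair of libraries, 1 plasma cell shared its barcode with a cell of another library, and 0 plasma cell barcodes occurred in both libraries of a pair.

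Markers that the rule did not use were detected in most of these cells. Of the 54 cells, Tnfrsf17 was detected in 50, Prdm1 in 53, Irf4 in 52, the ER protein Derl3 in 53, the kappa light chain Igkc in 53, and Sdc1 (CD138, the surface protein commonly used to sort plasma cells) in 46. The B cell genes Pax5 and Fcer2a had 2 and 0 UMIs over all 54 cells. Not every cell carried these markers, and a cell of control replicate 3 had 0 UMIs of Sdc1, Tnfrsf17 and Irf4. For comparison, 4531 B cells (Ms4a1 and Cd79a at 3 UMIs or more) from the same libraries were used as a reference. Igkc was detected in 98.0% of these B cells in p16-DTR and 98.2% in control, so its detection does not set plasma cells apart.

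Part of the barcodes also held RNA of another cell type. Over 52 marker genes of 7 other lung cell types, 14 of the 54 barcodes had 50 UMIs or more (69 to 1409), while the other 40 had at most 28. The leading list was that of macrophages and monocytes in 10 barcodes, of neutrophils in 2, of fibroblasts in 1 and of dendritic cells in 1. One barcode of p16-DTR replicate 2 held 514 UMIs of Lyz2 (lysozyme) and 138 of C1qa (complement), and another held 532 of S100a9 (a neutrophil calprotectin subunit). These 14 barcodes held 11 of the 21 IgM cells, 2 of the 28 IgA cells, the 1 IgD cell and 0 of the 4 IgG cells. They made up 0 of 11, 4 of 9 and 0 of 3 plasma cells in p16-DTR replicates 1 to 3, and 4 of 12, 1 of 5 and 5 of 14 in control replicates 1 to 3. Their median Ptprc (CD45) count was 44.5 UMIs against 9 in the other 40, and their median gene count 6981.5 against 5090. No doublet caller was run, and whether these droplets held 2 cells was not tested, so results that rest on them are given with and without them.

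**Figure D1:**
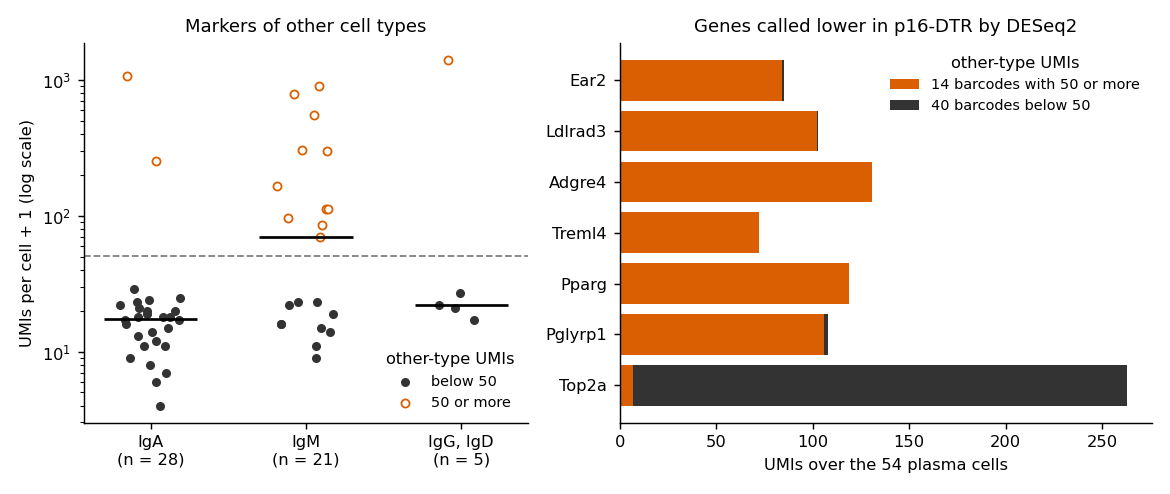
Left: UMIs over the marker genes of other cell types in each plasma cell, plus 1, on a log axis, by antibody class (filled points below 50 UMIs, open points 50 or more, horizontal lines medians, dashed line the limit). Right: UMIs of the 7 genes that DESeq2 called lower in p16-DTR plasma cells, split into those in the 14 barcodes with 50 or more and those in the other 40. The open points are mostly IgM cells, and the bars of all genes but Top2a lie almost wholly in the 14 barcodes.

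Antibody genes named the product of nearly every cell. The leading heavy chain gene held 97.1 to 100% of a cell's heavy chain constant UMIs. By that gene 28 cells made IgA, 21 IgM, 3 IgG2b, 1 IgG2c and 1 IgD. The light chain was kappa in 53 cells and lambda in 1, an IgA cell of p16-DTR replicate 2 with 7627 UMIs of Iglc2 and 0 of Igkc. The constant genes lie in the heavy chain locus on chromosome 12 in the order Ighm (chr12:113418558-113422730), Ighd, Ighg3, Ighg1, Ighg2b, Ighg2c, Ighe and Igha (chr12:113254830-113260236, GRCm38, all on the minus strand), and class switching removes the genes between the rearranged variable segment and the one used. Igha and Ighm, the genes at the ends of that array, were the leading heavy chain in 49 of the 54 cells.

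The variable genes showed a repertoire of mostly different antibodies with 1 recurrent pair. A dominant variable gene (at least 3 UMIs and over 50% of its locus) could be read for both chains in 52 cells, from a median of 42 heavy and 207.5 kappa variable UMIs per cell, and these fell into 43 distinct combinations of heavy variable gene, light variable gene and class. Of 26 heavy variable genes seen, Ighv1-26 and Ighv1-53 were dominant in 8 cells each, Ighv1-81 in 6 and Ighv1-72 in 5. Of 29 light variable genes, Igkv3-2 was dominant in 10 cells, Igkv12-46 in 4 and 4 others in 3 each. The combination Ighv1-53 with Igkv3-2 and IgM was found in 7 cells from 3 mice: 2 of p16-DTR replicate 2, 1 of control replicate 1 and 4 of control replicate 3. The other 3 combinations seen more than once each came from 1 library and 2 cells. The germline coding sequences of the recurrent pair are printed because these variable genes recurred together in cells of several mice, from the codon given to the end of the exon, 5′ to 3′, with capitals marking the conserved second cysteine codon and the germline bases after it, where the joined segment begins.
Ighv1-53: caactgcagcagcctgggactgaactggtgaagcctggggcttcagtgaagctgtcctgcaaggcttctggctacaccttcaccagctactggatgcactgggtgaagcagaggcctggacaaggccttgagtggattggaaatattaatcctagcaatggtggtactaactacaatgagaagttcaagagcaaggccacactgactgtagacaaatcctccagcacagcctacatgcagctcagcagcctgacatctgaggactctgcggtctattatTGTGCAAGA
Igkv3-2: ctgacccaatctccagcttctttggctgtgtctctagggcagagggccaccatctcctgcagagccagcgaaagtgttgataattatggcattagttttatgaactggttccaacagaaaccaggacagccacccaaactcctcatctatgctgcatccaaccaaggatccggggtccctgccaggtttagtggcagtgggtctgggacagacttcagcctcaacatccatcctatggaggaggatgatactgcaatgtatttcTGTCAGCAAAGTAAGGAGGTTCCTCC
Ighv1-53 lies at chr12:115158403-115158835 (GRCm38, minus strand) and is shown for 288 bases from codon 22, and Igkv3-2 lies at chr6:70698449-70699067 (plus strand) and is shown for 290 bases from codon 24. Among the coding variable genes of the GENCODE M21 annotation, pseudogenes left out, the closest were Ighv1-72 and Ighv1-64 at 95.4% identity and Igkv3-1 at 92.8%. Reads from such near copies can be assigned to the wrong gene, and counts of genes do not read the joining sequence, so 2 cells with the same pair are not shown to be 1 clone.

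In the 7 cells with the recurrent pair Ighv1-53 held 23 to 227 UMIs (median 55) and at least 63.2% of the heavy variable UMIs. Igkv3-2 held 217 to 726 UMIs (median 391) and at least 99.2% of the kappa variable UMIs in each cell. All 10 cells with Igkv3-2 were IgM, and 8 of the 10 were among the 14 barcodes with markers of another cell type. Of the 7 cells with the pair, 6 were among those 14 barcodes and 1, in p16-DTR replicate 2, was not. In the wider set the pair was found in 12 cells from 4 mice (2 in p16-DTR replicate 2, 2 in p16-DTR replicate 3, 1 in control replicate 1 and 7 in control replicate 3), 3 of them with fewer than 50 UMIs of other cell types. Among B cells with both chains read, the pair was found in 0 of 48, 0 of 68 and 1 of 88 in p16-DTR replicates 1 to 3, and in 0 of 84, 1 of 68 and 3 of 69 in control replicates 1 to 3. It was thus seen in B cells of control replicates 2 and 3 and of p16-DTR replicate 3 as well. In control replicate 3 it was the most frequent pair of the B cells. The rule for B cells set no limit on Jchain. Jchain was detected in 141 of 2135 p16-DTR B cells (30422 UMIs) and in 143 of 2396 control B cells (44154 UMIs). Whether the B cells with this pair, or with the pair given next, were among these was not tested.

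In the wider set 2 further combinations were shared between mice. One was Ighv12-3 with Igkv4-91 and IgM, in 3 cells of p16-DTR replicate 2 and control replicate 3, and the other was Ighv6-3 with Igkv12-46 and IgM, in 1 cell each of the same 2 mice. The sequences of the first of them are printed, with the same meaning of capitals, because it shares neither gene with the pair above.
Ighv12-3: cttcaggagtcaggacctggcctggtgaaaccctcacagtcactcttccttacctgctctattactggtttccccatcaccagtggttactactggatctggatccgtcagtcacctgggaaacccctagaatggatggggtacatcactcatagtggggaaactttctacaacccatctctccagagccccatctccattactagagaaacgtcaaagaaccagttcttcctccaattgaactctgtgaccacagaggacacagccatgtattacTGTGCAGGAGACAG
Igkv4-91: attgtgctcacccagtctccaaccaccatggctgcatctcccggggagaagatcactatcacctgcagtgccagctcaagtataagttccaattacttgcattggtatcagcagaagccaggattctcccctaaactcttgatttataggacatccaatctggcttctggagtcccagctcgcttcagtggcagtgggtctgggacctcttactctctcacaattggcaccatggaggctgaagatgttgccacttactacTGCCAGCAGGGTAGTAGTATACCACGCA
Ighv12-3 lies at chr12:114366521-114366954 and Igkv4-91 at chr6:68768555-68769103 (GRCm38, both on the minus strand). Their closest other genes were at 77.7% and 87.2% identity, further off than for the first pair. The pair was found in 1 of 68 B cells with both chains read in p16-DTR replicate 2, in 1 of 84 in control replicate 1, and in 0 in the other 4 libraries. Of the combinations seen in more than 1 cell of the wider set, 5 were IgM, 3 of them shared between mice and 2 within 1 mouse, and 4 were IgA, each within 1 mouse. The difference between the classes was not tested.

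**Figure D2:**
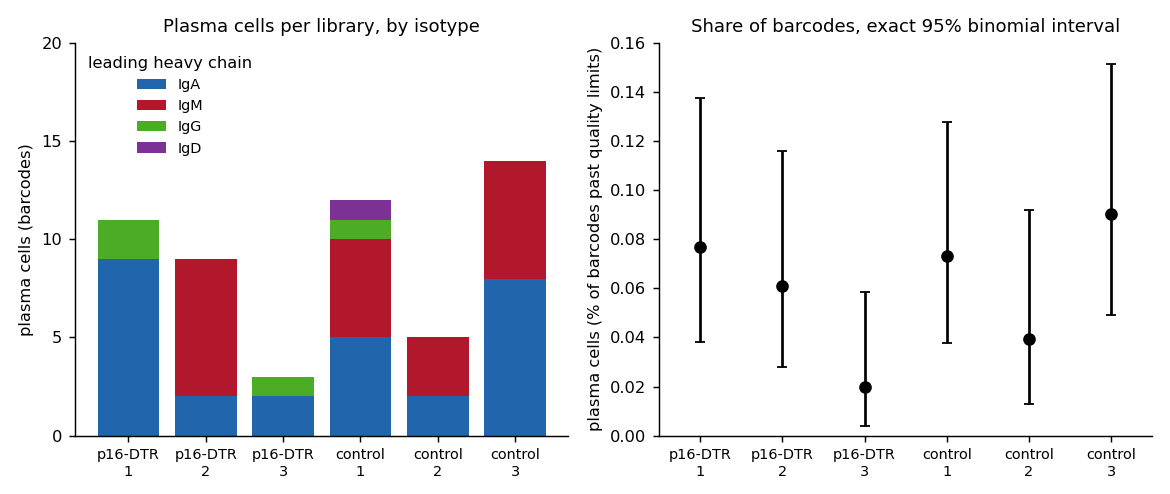
Left: plasma cells per library, stacked by the class of the leading heavy chain. Right: plasma cells as a percentage of barcodes past the quality limits, with the exact 95% binomial interval of each library. IgM cells were seen in 4 of the 6 libraries, and the intervals of all 6 libraries overlap.

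Plasma cells made up 0.0768%, 0.0611% and 0.0200% of barcodes in p16-DTR replicates 1 to 3 (11, 9 and 3 cells), and 0.0730%, 0.0395% and 0.0901% in control replicates 1 to 3 (12, 5 and 14 cells). The values of the groups overlapped, with means of 0.0526% ± 0.0293 (SD, n = 3) in p16-DTR and 0.0675% ± 0.0258 (SD, n = 3) in control (exact two-sided permutation p = 0.6; the smallest p that 3 against 3 allows is 0.1). IgA cells were 81.8%, 22.2% and 66.7% of plasma cells in the p16-DTR libraries and 41.7%, 40% and 57.1% in the control libraries. Their shares did not separate the groups either (difference 10.6 percentage points, exact two-sided permutation p = 0.6). Class varied between mice of 1 group: p16-DTR replicates 1 and 3 held 0 IgM cells of 11 and 3, while 7 of the 9 plasma cells of p16-DTR replicate 2 were IgM. In the wider set IgM cells were 2 of 18, 11 of 15 and 3 of 9 in p16-DTR replicates 1 to 3. With 3 mice a group, no difference in these shares could pass a threshold of 0.05 by this test.

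Immunoglobulin genes took 37.7% of a plasma cell's UMIs at the median, with a range of 3.51 to 64.2%. Summed per library the share was 37.7%, 44.5% and 46.9% in p16-DTR and 38.0%, 39.5% and 32.3% in control. These values overlapped (difference 6.42 percentage points, exact two-sided permutation p = 0.3), as did the median UMIs per cell (47880, 70929 and 53886 against 57581.5, 67176 and 59924.5; exact two-sided permutation p = 0.7).

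Levels of the genes that chose the cells, and of the secretory machinery, are set beside the B cells as a description without a test, because the rule itself separates the sets. Jchain stood at a median over libraries of 287 UMIs per 10000 in plasma cells (214 to 409) and 8.52 in B cells, Xbp1 at 6.96 and 0.846, and Mzb1, an ER protein that assists antibody assembly, at 18.0 and 2.59. Every library had the higher value in plasma cells for all 3 genes. The Jchain level of B cells came from few of them, since Jchain was detected in 6.60% of p16-DTR and 5.97% of control B cells. Of the further plasma cell genes, Tnfrsf17 stood at 3.68, 1.01 and 2.72 per 10000 in the p16-DTR libraries and 2.02, 1.92 and 4.55 in the control libraries, against 0.0239 at the median in B cells. That is a 99.0-fold ratio of medians, and the plasma cell values of the groups overlapped. Prdm1, the repressor of the B cell program, stood 15.5-fold above B cells and Sdc1 11.9-fold. Irf4 was 2.50-fold above B cells, in which it was already detected. Over the list of plasma cell identity genes, 13 of 18 were higher in plasma cells in all 6 libraries, and of B cell identity genes 20 of 21 were lower. Over all 16247 genes with at least 20 UMIs, 2.97% were higher and 51.04% lower in all 6 libraries, and the median gene stood at 0.354 of its B cell level.

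Genes of every step of the secretory pathway stood above B cells. The list of ER chaperones and the unfolded protein response, the program that adjusts ER folding capacity to load, had 24 of 32 members higher in all 6 libraries, with a median ratio of 3.25. Hsp90b1, the ER form of the chaperone HSP90, stood at 31.4 to 85.1 UMIs per 10000 in plasma cells and 8.22-fold above B cells at the medians. Hspa5 (BiP, which holds unpaired heavy chains) stood at 13.2 to 35.1, a ratio of 2.59, and Calr (calreticulin, which folds glycoproteins) at 6.32 to 15.7, a ratio of 3.12. In each of these the highest library was p16-DTR replicate 1, which held 0 IgM cells, and the values of the other 2 p16-DTR libraries overlapped those of the control libraries for Hspa5 and Calr. For Hsp90b1 they were 31.4 and 47.4, against 59.7, 49.4 and 41.4 in control. Creld2 stood 11.5-fold and the disulfide isomerase Pdia6 4.61-fold above B cells. Not every member did: Ero1lb, an oxidase of the disulfide pathway, was at 0.211 of its B cell level.

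Translocation into the ER and signal peptide cleavage had 18 of 24 members higher in all 6 libraries (median ratio 3.12), with Ssr4 of the translocon-associated complex at 7.53-fold and the signal peptidase subunit Sec11c at 6.12-fold. N-glycosylation had 14 of 18 (median ratio 1.83; the oligosaccharyltransferase subunit Rpn1 at 7.52-fold), and ER-associated degradation had 12 of 15 (2.65; Edem1, which directs misfolded glycoproteins to degradation, at 5.89-fold). Transport by COPII vesicles and through the Golgi had 15 of 27 (1.89). Oxidative phosphorylation had 5 of 26 and a median ratio of 1.07. The secretory lists therefore lay above B cells while the respiratory list lay close to them, on a scale where the median gene was at 0.354.

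**Figure D3:**
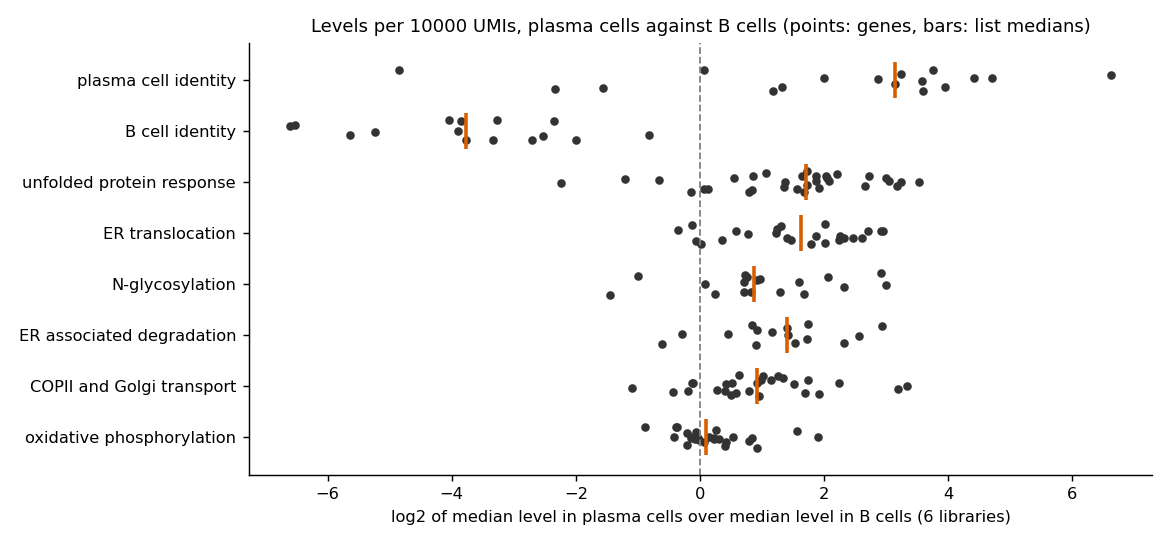
Log2 of the median level per 10000 UMIs over 6 libraries in plasma cells divided by that in B cells, for the genes of 8 lists (points: genes; bars: list medians; the selecting genes and genes with a median of 0 in either set are left out). The 5 ER and transport lists lie to the right of 0 at their medians, the B cell list to the left, and the oxidative phosphorylation list near 0.

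The promoters of these lists differ in a known element. The ER stress response element, spelled CCAAT, then 9 bases of any kind, then CCACG, and searched on both strands in the 250 bases before each RefSeq gene start, binds the factors NF-Y, Atf6 and Xbp1 by textbook knowledge. It was present in 8 of 29 promoters of the ER chaperone list (27.6%: Hspa5, Hsp90b1, Calr, Canx, Pdia6, Dnajc3, Creld2 and Ero1b, which the deposited gene set lists as Ero1lb), in 1 of 15 of the plasma cell identity list (Derl3) and in 1 of 11 of the degradation list (Syvn1). It was present in 0 promoters of the translocation, N-glycosylation, transport and oxidative phosphorylation lists, and in 35 of all 27025 promoters of that length (0.130%). A match describes the letters only, and none shows binding in these cells. The promoters of 3 members with a match are printed as examples that stand 2.59-fold, 3.12-fold and 26.2-fold above B cells (RefSeq, GRCm38.p6, 5′ to 3′ on the gene's strand, capitals marking the match).
Hspa5: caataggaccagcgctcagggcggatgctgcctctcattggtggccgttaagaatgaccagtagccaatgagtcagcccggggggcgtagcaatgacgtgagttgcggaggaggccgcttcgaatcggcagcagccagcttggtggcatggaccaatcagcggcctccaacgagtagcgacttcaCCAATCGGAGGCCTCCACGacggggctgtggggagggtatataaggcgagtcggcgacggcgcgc
Calr: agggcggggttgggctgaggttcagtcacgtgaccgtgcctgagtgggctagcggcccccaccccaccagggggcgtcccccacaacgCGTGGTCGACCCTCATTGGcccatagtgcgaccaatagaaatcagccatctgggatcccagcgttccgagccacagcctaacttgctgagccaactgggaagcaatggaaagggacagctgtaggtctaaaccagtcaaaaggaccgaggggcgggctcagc
Derl3: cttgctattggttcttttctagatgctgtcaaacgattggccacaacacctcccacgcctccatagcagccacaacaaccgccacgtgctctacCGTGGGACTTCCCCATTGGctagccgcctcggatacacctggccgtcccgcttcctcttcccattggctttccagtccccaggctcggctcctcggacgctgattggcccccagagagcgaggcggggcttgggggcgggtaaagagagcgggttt
They lie at chr2:34771840-34772089 (plus strand), chr8:84846932-84847181 (minus strand) and chr10:75893148-75893397 (plus strand). In Calr and Derl3 the match is on the opposite strand, so the capitals begin with CGTGG.

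Antibody RNA is given first as values over cells pooled from all mice, with no test. An IgA cell devoted a median of 23.5% of its UMIs to immunoglobulin genes (3.51 to 53.4%), an IgM cell 46.2% (24.4 to 64.2%) and the 3 IgG2b cells 62.6%. The IgA cells also held fewer UMIs in all (median 50489 against 68380). The own heavy chain had a median of 3590 UMIs in IgA cells and 10049 in IgM cells, and Igkc 7979.5 and 23877. In the sums per mouse described next, Igkc gave -1.68 (SE 0.41, edgeR adjusted p = 0.0564) in the first fit and -1.50 (SE 0.51, edgeR adjusted p = 0.127) in the second, called in neither. Light chain UMIs per heavy chain UMI were nearly the same, 2.35 and 2.37 at the medians. In IgM cells with 50 or more UMIs of other cell types the immunoglobulin share was lower, 40.4%, than in the other 10 IgM cells, 59.4%.

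**Figure D4:**
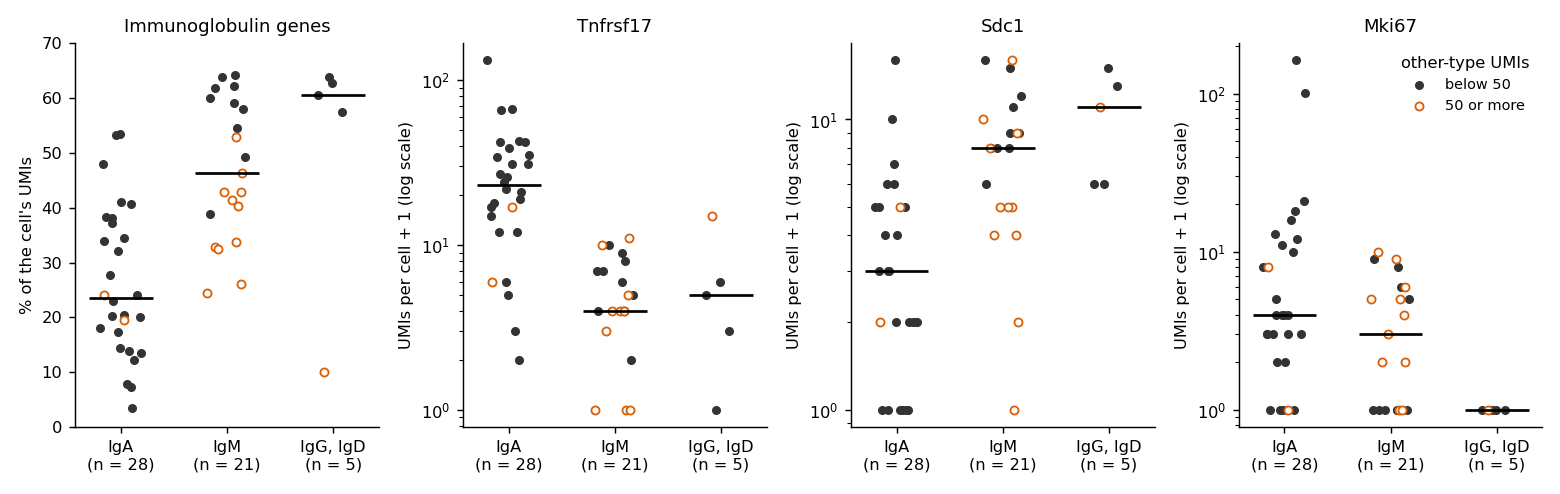
Per plasma cell: percentage of UMIs on immunoglobulin genes, and UMIs plus 1 on a log axis for Tnfrsf17, Sdc1 and Mki67, by antibody class (filled points below 50 UMIs of other cell types, open points 50 or more, lines medians). IgA cells lie lower for immunoglobulin genes and Sdc1 at the medians and higher for Tnfrsf17, and the Mki67 counts of 10 or more are all in IgA cells.

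The test between classes used UMI sums per mouse and class with the mouse as a block. In the 2 mice with at least 5 cells of each class (control replicates 1 and 3), edgeR's quasi-likelihood test called 223 of 4221 genes at a Benjamini-Hochberg adjusted p under 0.05 (5.28%), 81 higher in IgA (1.92%) and 142 lower (3.36%); 216 of them were not immunoglobulin genes. Scaling by total UMIs instead of TMM moved the median gene from 0.03 to 0.70 on the log2 scale and gave 318 higher and 91 lower. DESeq2 called 110 (2.61%). With mice that had at least 2 cells of each class, edgeR called 181 of 4152 genes (4.36%), and the wider set in the same 2 mice gave 656 of 6157 (10.7%). Without the barcodes of 50 or more UMIs of other cell types, mice with at least 1 cell of each class gave 62 of 2023 (3.06%). The fit could not be repeated without 1 of the 2 mice, which leaves no residual degrees of freedom.

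Among the called genes with the largest changes, several lower ones belong to phagocytes. The chemokine receptor Ccr2 stood at 0 and 0 counts per 1000000 UMIs (CPM) in IgA cells and 197 and 202 in IgM cells, and F13a1 (coagulation factor XIII, a monocyte product) at 0 and 0 against 45.6 and 221. Nrp1, Aif1, Nlrc5 and Ipcef1 were likewise at 0 in IgA cells of both mice. All 168 UMIs of Ccr2 in IgM cells were in the 11 barcodes with markers of other cell types and 0 in the other 10. Other genes called lower also differed outside those barcodes: H2-K1 had a median of 21.5 UMIs in the 26 IgA cells with fewer than 50 UMIs of other cell types and 64 in the 10 such IgM cells, and B2m had 67 and 177. The higher calls of largest size were Pclaf, Nusap1 and Chtf18, which act in DNA replication and mitosis, the lectin-like receptor Klrb1, Ccr10, the transcriptional repressor Zbtb32 and the sodium pump subunit Atp1b1. The B cell identity list had 6 of 10 tested members called lower and 1 higher (against 3.36% and 1.92% of all genes), with a median of -1.85, and the lower ones were H2-Aa, H2-Ab1, H2-Eb1 and Cd74 of MHC class II, Fcrla and Cd83. In the second fit, described next, 1 of 10 was called lower (Fcrla) and 1 higher, with a median of 0.15. There H2-Ab1 gave 0.39, H2-Eb1 0.78 and Cd74 -0.65, none called. H2-Aa had a median of 64 UMIs in the 11 IgM barcodes with markers of other cell types and at most 7 in the other 10. For the immunoglobulin genes, Ighv1-53, Ighv1-55 and Igkv3-2 were lower and Igkv9-120 higher in IgA cells, and Igha and Ighm were the basis of the split.

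A second fit, added after the data had been seen, took the wider set without the barcodes that held 50 or more UMIs of other cell types, and mice with at least 2 cells of each class. It held 5 mice (p16-DTR replicates 1 and 3 and control replicates 1 to 3), with 4 to 13 IgA and 2 to 6 IgM cells each, and edgeR called 221 of 4260 genes (5.19%), 127 higher and 94 lower in IgA. Of the 81 genes called higher in the first fit, 78 were tested, all in the same direction, and 45 were called. Of the 142 called lower, 79 were tested, 75 in the same direction, and 26 were called. These cells overlap with those of the first fit, so the second is no independent support. The count was 91 without p16-DTR replicate 1, 536 without p16-DTR replicate 3, 102 without control replicate 1, 152 without control replicate 2 and 110 without control replicate 3. Scaling by total UMIs moved the median gene to 0.73 and gave 229 higher and 37 lower (266 in all, 6.24%), and DESeq2 called 304 (7.14%). Genes named from it below were chosen after their values were seen.

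Genes higher in IgA cells included the following examples. Crip1, a LIM domain protein, stood at 2382, 1875, 1981, 1823 and 2786 CPM in IgA cells of the 5 mice and at 116, 294, 97.0, 120 and 197 CPM in IgM cells. Every IgA value lay above every IgM value (log2 difference 3.79, SE 0.31, edgeR adjusted p = 0.000304). The actin-binding peptide Tmsb10 was 2.90 higher on the log2 scale (SE 0.23), S100a10 3.49 (SE 0.31) and the migration regulator Dock2 2.43 (SE 0.24). S100a10 forms a complex with annexin A2, and Anxa2 itself stood at 638 to 916 CPM in IgA cells against 0 to 27.1 CPM in IgM cells. The inflammasome adaptor Pycard (ASC) was 4.02 higher (SE 0.41), with a median of 84 UMIs per IgA cell and 5 per IgM cell in the 54 cells (86.5 and 3.5 without the 14 barcodes). Klf2, a transcription factor that controls lymphocyte trafficking, was 4.32 higher (SE 0.55) and was detected in 28 of 28 IgA cells at a median of 50.5 UMIs, against 3 UMIs in IgM cells. Without the 14 barcodes with markers of other cell types these medians were 50.5 and 0.5, and Klf2 was seen in 5 of 10 IgM cells. Atp1b1 stood at 170 to 430 CPM in IgA cells, and in IgM cells at 0 CPM in 4 mice and at 7.74 CPM in the fifth. The vimentin gene Vim was 4.05 higher (SE 0.63, edgeR adjusted p = 0.00591). Each of these genes was called in all 5 refits that left out 1 library.

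Of 26 listed homing and survival receptors, 18 were tested in the second fit, and 7 of them had a difference above 0. Of the 18, 4 were called higher in IgA cells and 1 lower, where 2.98% of all genes tested were called higher and 2.21% lower, and the list median was -0.11 against 0.08 over all genes. Ccr10, the receptor for the epithelial chemokine Ccl28, was detected in 21 of 28 IgA cells and in 1 of 21 IgM cells. Its summed level was 130, 50.4, 64.5, 55.1 and 90.6 CPM in IgA cells and 38.6, 19.6, 0, 0 and 0 CPM in IgM cells, with every IgA value above every IgM value (log2 difference 3.06, SE 0.72, edgeR adjusted p = 0.0357). Itgb7 was 4.08 higher (SE 0.58, edgeR adjusted p = 0.00415) and its partner Itga4 1.38 higher (SE 0.23, edgeR adjusted p = 0.00752). Tnfrsf17 was 1.99 higher (SE 0.46, edgeR adjusted p = 0.0317), with 22 UMIs per IgA cell at the median and 3 per IgM cell in the 54 cells, and 24 and 5.5 without the 14 barcodes with markers of other cell types. The gut homing receptor Ccr9 was detected in 7 of 28 IgA cells and 1 of 21 IgM cells (log2 difference 3.29, SE 1.06, edgeR adjusted p = 0.109). In the first fit Ccr9 was called higher in IgA cells, at 38.0 and 39.3 CPM against 0 and 0 (edgeR adjusted p = 0.0420). In control replicate 3 all 23 Ccr9 UMIs of the IgA cells were in 1 cell. Ccr9 was called in 0 of the 5 refits of the second fit that left out 1 library. Cxcr4, which holds plasma cells in bone marrow, gave -1.33 (SE 0.46, edgeR adjusted p = 0.132). The receptor called lower was Tnfrsf13c, the BAFF receptor of B cells (-1.68, SE 0.33, edgeR adjusted p = 0.0167). Klrb1 was detected in 21 of 28 IgA cells and 0 of 21 IgM cells. Itgb7 was called in all 5 refits that left out 1 library and Itga4 in 4, while Ccr10 and Tnfrsf17 were each called in 1 of 5, with the same direction in all (edgeR adjusted p up to 0.111 and 0.117). Tnfrsf13c was called in 3 of 5 (edgeR adjusted p up to 0.0751).

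Genes lower in IgA cells included receptors and signalling genes of IgM cells. Il5ra, the interleukin 5 receptor known from innate-like B-1 cells and eosinophils, stood at 0 CPM in IgA cells of 4 mice and 1.46 in the fifth, and at 141, 19.6, 51.7, 34.8 and 162 CPM in IgM cells. Il5ra was not tested in the first fit. Dgkg, a diacylglycerol kinase, was detected in all 21 IgM cells and in 3 of 28 IgA cells, or 10 of 10 and 1 of 26 without the 14 barcodes (log2 difference -6.05, SE 0.53, edgeR adjusted p = 0.000304). The phosphatase-like signalling gene Ubash3b gave -6.85 (SE 0.72), the RNA-binding Rbm47 -2.83 (SE 0.35), the focal adhesion gene Tns3 -3.44 (SE 0.43) and the growth factor receptor Igf1r -3.95 (SE 0.57). Sdc1 was lower in IgA cells by -1.52 (SE 0.31, edgeR adjusted p = 0.0210), at 36.6 to 118 CPM against 147 to 244. With scaling by total UMIs this was -0.90 and no longer called (edgeR adjusted p = 0.151), and it was called in 2 of the 5 refits that left out 1 library. Dgkg and Rbm47 were called in all 5. The factors Irf4 (0.25, SE 0.39) and Prdm1 (-0.10, SE 0.42) did not pass the test.

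**Figure D5:**
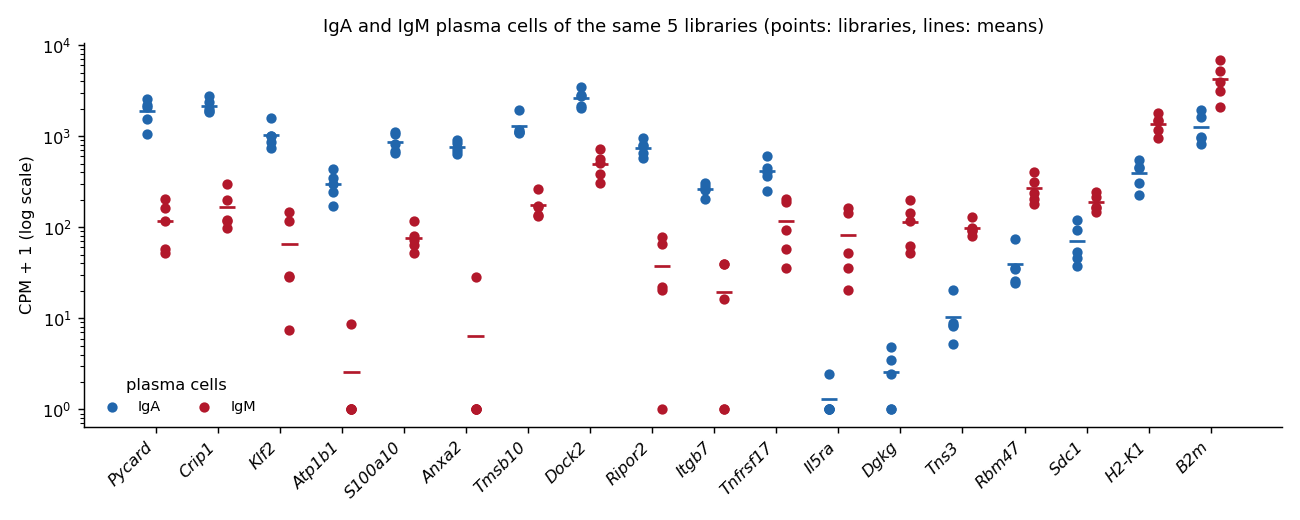
CPM plus 1, on a log axis, of 18 genes in IgA cells (blue) and IgM cells (red) of the same 5 libraries of the wider set, without barcodes with 50 or more UMIs of other cell types (points: libraries; lines: means). The IgA points of Crip1, S100a10, Dock2 and Itgb7 lie above all IgM points, and the IgM points of Il5ra, Dgkg, Rbm47 and Sdc1 above all IgA points.

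Genes of MHC class I presentation, which shows peptides to CD8 T cells, were lower in IgA cells with the main scaling. Of 12 tested members, 6 were called lower and 0 higher (2.21% and 2.98% of all genes), and the list median was -1.13 against 0.08 over all genes. The light chain B2m stood at 827 to 1941 CPM in IgA cells and 2067 to 6839 in IgM cells (-1.71, SE 0.37, edgeR adjusted p = 0.0249), H2-K1 gave -1.83 (SE 0.29), H2-Q7 -2.76 (SE 0.36), H2-D1 -0.86 (SE 0.21), and the transactivator of these genes, Nlrc5, -3.96 (SE 0.76). With scaling by total UMIs, B2m gave -1.06 (edgeR adjusted p = 0.0919), H2-K1 -1.19 (edgeR adjusted p = 0.0580) and H2-D1 -0.21, none of them called, while Nlrc5 stayed called at -3.41. B2m and H2-D1 were each called in 1 of the 5 refits that left out 1 library and Nlrc5 in 2. In that scaling the median gene stood at 0.73, so these genes lay below it in both.

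The secretory lists are given for the second fit, in which 2.21% of all genes were called lower in IgA cells. Of 32 ER chaperone genes 3 were called lower (Herpud1, Prdx4 and Creld2) and 0 higher, with a list median of -0.09 against 0.08 over all genes. These 3 genes were each called in 1 of the 5 refits that left out 1 library, and in the first fit 0 of 31 were called. The first fit's medians had the other sign, at 0.49 for the ER chaperone list, 0.42 for translocation and 0.31 for N-glycosylation (0.03 over all genes), against -0.10 and -0.09 for the last 2 lists in the second. The degradation list had 1 of 14 called lower (Herpud1), the transport list 1 of 26 (Ergic1), and the translocation and N-glycosylation lists 0 of 23 and 0 of 16. Of 26 oxidative phosphorylation genes tested, 1 was called higher in IgA cells, the respiratory chain gene Ndufa4. Among the listed secreted and regulatory factors Cd274 (PD-L1, the ligand of an inhibitory T cell receptor) was called higher in IgA cells in both fits, at 276 to 771 CPM against 12.9 to 279 in the second (2.46, SE 0.57, edgeR adjusted p = 0.0317). In each of the 5 mice its level was higher in the IgA cells, although the ranges over mice overlapped. The immediate early and stress genes, which tissue dissociation is known to induce, had 11 of 14 members called lower in IgA cells in the first fit (against 3.36% of all genes), with a median of -3.21 against 0.03 over all genes. In the second fit 4 of 13 were called lower (Ier2, Fosb, Jun and Jund, against 2.21% of all genes), and Jun gave -3.10 (SE 0.60). In the 5 refits that left out 1 library, Ier2 and Fosb were called in all 5, Jun in 3 and Jund in 1 (Jund edgeR adjusted p up to 0.143). The part of these stress genes in the other differences was not tested.

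Proliferation genes were compared between the classes by cell and by fit. Mki67, a marker of cycling cells, reached 10 UMIs or more in 8 of 28 IgA cells, with 162 at most, and in 0 of 21 IgM cells, with 9 at most. In the first fit 5 of 12 proliferation genes were called higher in IgA cells (Mki67, Top2a, Ube2c, Cenpf and Cdk1), against 1.92% of all genes. Among the 54 cells the highest Mki67 counts, 162 and 100 UMIs, were in IgA cells of control replicate 3, a mouse of that fit. In the wider set 4 of 43 IgM cells also had 10 UMIs or more, up to 158, and in the second fit 0 of 18 proliferation genes were called. All 18 had a difference above 0, with a median of 1.76 against 0.08 over all genes, and Mki67 gave 1.11 (SE 1.05, edgeR adjusted p = 0.625).

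Between the groups, edgeR called 0 of 5373 genes (0%) in plasma cells summed per mouse, with 188 genes at an unadjusted p under 0.05 and a smallest adjusted p of 0.177. DESeq2 called 7 (0.13%), all lower in p16-DTR: Ear2, Ldlrad3, Adgre4, Treml4, Pparg, Pglyrp1 and Top2a. The values of the 2 groups did not overlap in 479 genes, 8.91% of those tested. In such sums, fewer cells of a kind and less RNA per cell cannot be told apart. Without p16-DTR replicate 2, edgeR called 28 genes, 25 of them lower, and without control replicate 1 it called 1.

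Of the 20 genes with the smallest p, 18 had lower and 2 higher values in p16-DTR. Ear2, a ribonuclease of eosinophils and monocytes, stood at 0 CPM in all 3 p16-DTR libraries and at 50.8, 44.9 and 39.1 CPM in the controls, and 84 of its 85 UMIs lay in the 14 barcodes with markers of other cell types. The same held for 102 of 103 UMIs of Ldlrad3, for 131 of 131 of Adgre4 (a monocyte and macrophage adhesion receptor), for 72 of 72 of Treml4, for 119 of 119 of Pparg and for 106 of 108 of Pglyrp1 (a peptidoglycan recognition protein of myeloid cells). Of the 14 barcodes, 10 were in control libraries and 4 in p16-DTR replicate 2. Without them edgeR called 0 of 3517 genes, and none of these 6 passed the filter on low counts. In B cells edgeR called 0 of 14012 genes (0%) between the groups. The group difference in plasma cells differed from that in B cells for 6 of 13270 genes by edgeR (0.0452%: Ear2, Adgre4, Ldlrad3, Pparg, Ighv1-34 and Ighv1-81) and for 6 by DESeq2 (0.0452%). With a library left out, edgeR's count ranged from 0 to 196. Top2a, the mitotic topoisomerase, was different, with 7 of its 263 UMIs in the 14 barcodes and 115 in 1 cell.

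Mki67 stood at 60.4, 44.6 and 28.5 CPM in p16-DTR and at 120, 86.3 and 314 CPM in control, with no overlap (log2 difference -1.90, SE 0.51, edgeR adjusted p = 0.999). Of the 8 cells with 10 or more UMIs of it, 6 were control and 2 p16-DTR. Of the 399 Mki67 UMIs in control plasma cells, 162 and 100 were in single cells of control replicate 3. Cd28, a co-stimulatory receptor that long-lived plasma cells also use, stood at 100.01, 125 and 171 CPM in p16-DTR and at 57.9, 62.1 and 44.6 CPM in control (log2 difference 1.24, SE 0.31, edgeR adjusted p = 0.944). It was detected in 40 of the 54 cells, and 185 of its 244 UMIs lay outside the 14 barcodes. The other gene with higher values was Gm11342 at 1.64 (SE 0.41). Others with lower values were Nr4a2, an immediate early nuclear receptor (-2.87, SE 0.61), Tgm2, a transglutaminase (-3.18, SE 0.73), Tnfrsf1b, a TNF receptor (-2.25, SE 0.55), and the receptor kinase Grk5 (-1.79, SE 0.41). Slf1, Arhgef10l, Fgr, Xdh, Cdk17, Gda and Ighv1-81 made up the rest, and edgeR's adjusted p was over the limit for each of the 20.

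The antibody and identity genes overlapped between the groups. Igha stood at 65595, 23295 and 60563 CPM in p16-DTR and 15535, 26681 and 35428 in control (log2 difference 0.94, SE 0.47, edgeR adjusted p = 0.999). Igkc gave 0.49 (SE 0.35), Sdc1 0.18 (SE 0.38), Tnfrsf17 0.03 (SE 0.46), Prdm1 0.09 (SE 0.36), Irf4 0.68 (SE 0.39), Ccr10 0.55 (SE 0.73) and Cxcr4 -0.66 (SE 0.57), none called. Ighm ranged from 7.12 CPM in p16-DTR replicate 3 to 130941 in p16-DTR replicate 2, and so differed more within the group than between groups. By edgeR all of the gene lists had 0 members called, while 2 of the 7 genes called by DESeq2 are list members (Top2a of the proliferation list and Ear2 of the macrophage and monocyte list). The ER chaperone list had 32 members tested and a median log2 difference of 0.26, the proliferation list 9 tested and -1.21, and all genes 0.01. Single control cells held many UMIs of the proliferation list. Cells of control replicate 3 held 1157 and 694 and a cell of control replicate 2 held 354, against at most 94 in a p16-DTR cell.

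Cdkn2a, the gene whose promoter drives the Cre, had few UMIs in plasma cells of both groups. It had 1, 2 and 0 UMIs in the p16-DTR libraries and 1, 1 and 2 in the control libraries, which is 2.16 per 1000000 UMIs in each group. The 7 UMIs were in 7 cells, 3 of 23 p16-DTR and 4 of 31 control. In B cells of the same libraries it had 609 UMIs in p16-DTR (14.04 per 1000000, in 377 of 2135 cells) and 34 in control (0.752 per 1000000, in 21 of 2396 cells), so the libraries labelled p16-DTR had the higher level in B cells in all 3 mice. The label names a treatment that removes p16-expressing cells, and the cause of this higher level was not tested. The groups are named by their labels throughout. The reporter tdTomato, a separate entry of the gene set, had 23 UMIs in the 2135 p16-DTR B cells and 0 in the 2396 control B cells. Thinned to 5000 UMIs per cell, Cdkn2a was detected in 1 of 23 and 1 of 31 plasma cells, and in 5.84% and 0.172% of B cells. The Cdkn2a log2 difference in B cells was 4.21 with an unadjusted p of 3.89e-05 and was not called (edgeR adjusted p = 0.276). The group difference in plasma cells minus that in B cells was -4.25 (SE 1.40, edgeR adjusted p = 0.997). The plasma cells held 1388272 UMIs in p16-DTR and 1853538 in control, so a limit of 3 UMIs stands for 2.16 and 1.62 per 1000000, and lower levels were not detectable at this depth.

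Cdkn1a, the p53 target that arrests the cell cycle, had 20 UMIs in 2 of 23 p16-DTR plasma cells and 80 in 12 of 31 control cells (log2 difference -1.33, SE 1.04, edgeR adjusted p = 0.999). Every cell with more than 1 UMI, including both p16-DTR cells (9 and 11 UMIs), was among the 14 barcodes with markers of other cell types. Cdkn1a was called lower in IgA than in IgM cells in the first fit. In IgM cells 82 of its 84 UMIs were in barcodes with markers of other cell types. It did not pass the filter on low counts in the second fit. The reporter tdTomato had 0 UMIs in plasma cells of both groups, which allows a share of up to 13.04% of p16-DTR and 9.68% of control cells with a UMI. These limits pool the cells of 3 mice each and cover counting error only.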

How the data were processed

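Single-cell RNA libraries (10x GEM-X 3′ chemistry, per the labels) were made from 6 mouse lungs, 3 p16-DTR and 3 control. The authors deposited raw UMI counts per gene and barcode without normalization. Cell Ranger 8.0.1 and the build mm10 are named in the submitters' processing notes. Gene coordinates and variable gene sequences were taken from GENCODE M21 (GRCm38), and promoters from RefSeq (GRCm38.p6).

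Barcodes were selected by the stated rule, and levels were computed per 10000 UMIs or as counts per 1000000 UMIs (CPM) after TMM or total scaling. UMI counts were summed per library, and per library and class, then tested with edgeR 4.0.16 (filterByExpr, TMM, quasi-likelihood, Benjamini-Hochberg threshold 0.05). DESeq2 1.42.0, other scalings and filters, other cell limits and leaving out each library were alternatives. Single values were compared by exact permutation with scipy 1.17.1. Fits were tested on simulated counts. Doublets were not called. Because plasma cells are few, library sums rest on 3 to 14 cells.

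The members and gene lists were chosen with earlier results of these data known. Named genes were: Cdkn2a, Cdkn1a, tdTomato, the selecting genes, immunoglobulin constant genes, Sdc1, Tnfrsf17, Prdm1, Irf4, Ccr10, Ccr9, Cxcr4 and Mki67; the called genes of largest change, or else those of smallest p, up to 20 per comparison; up to 4 top members and all called members of each list; up to 5 interaction genes; and the 5 commonest variable genes per chain.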

Additional observations from a re-analysis of the deposited data

Results flagged for a closer look

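For 6 genes the group difference (p16-DTR minus control) in plasma cells differed from that in B cells by edgeR's test of the difference itself (6 of 13270 genes, 0.0452%). With a library left out, the count ranged from 0 to 196. The differences of log2 differences were -12.47 for Ear2, -5.71 for Adgre4, -5.18 for Ldlrad3, -6.95 for Pparg, 11.67 for Ighv1-34 and -4.53 for Ighv1-81. In plasma cells alone the group log2 difference of Ear2 was -7.55. Its plasma cell sums were 0 CPM in every p16-DTR library, so the counts do not fix the size of either value. In B cells the group log2 differences were 0.24 for Ear2, 0.06 for Adgre4, 0.11 for Ldlrad3 and 0.46 for Pparg, none called.

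In plasma cells these 4 genes were read almost wholly from the 14 barcodes with 50 or more UMIs of other cell types: 84 of 85 UMIs for Ear2, 131 of 131 for Adgre4, 102 of 103 for Ldlrad3 and 119 of 119 for Pparg. Of the 2 variable genes, Ighv1-34 had 89 of its 92 UMIs in 1 cell. Ighv1-81 was seen in 6 cells and had 525 of its 609 UMIs in 1 cell of control replicate 1, which was among the 14 barcodes. Outside them it had 74 UMIs in control and 10 in p16-DTR, and its summed levels were 24.3, 0 and 0 CPM in p16-DTR and 924, 92.8 and 72.3 CPM in control.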

How the results depend on the processing

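Values are p16-DTR minus control. With 3 mice or fewer a group the exact test cannot reach 0.05, so no share could pass it in any setting. Without each library in turn, the plasma cell share ranged from -0.0290 to 0.0014 percentage points, the IgA share from -1.83 to 28.0, the kappa share from -5.56 to 0, the immunoglobulin share from 4.26 to 9.07 and the UMIs per cell from -10678 to 847. The sign also turned for the plasma cell share among cells with fewer than 10 UMIs of other cell types (0.00751), for the IgA share among cells with fewer than 50 (-7.26), and for UMIs per cell in the wider set (2664) and without immunoglobulin genes (1757).

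Genes called between groups numbered 7 by DESeq2, 213 with no filter on low counts, 2 in the wider set, and 0 to 28 when a library was left out. Genes called between classes numbered 409 with total scaling, 110 by DESeq2, 665 with no filter, 78 without immunoglobulin genes, 656 in the wider set, and 62 with 1 or more cells of each class and fewer than 50 UMIs of other types. Without 1 library the second class fit called 91 to 536 (102, 110 and 152 in the other refits). The group by cell set calls numbered 13 with total scaling, 120 with no filter, 71 below 50 UMIs of other types, and 0 to 196 when a library was left out. Itgam was lower in IgA cells in the first class fit and higher in the second (7.08), also without single libraries (6.31, 7.17, 7.35 and 7.37), without immunoglobulin genes (7.07), with total scaling (6.90) and by DESeq2 (4.89). Iglc2 was 0.91 in the first class fit and -1.30 in the second, neither called. It was below 0 without each of the 5 libraries and was called without control replicate 1 (-1.76) and by DESeq2 (-1.32). The causes were not tested.

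The replicate numbers did not pair the samples (same-numbered correlations -0.212, -0.192 and -0.039), and with a replicate block edgeR called 0 of 6224 genes (smallest adjusted p 0.169). The first class fit could not be made for fewer than 50 or 10 UMIs of other cell types, for Jchain of 100 or more, or without 1 of its mice. Counts of 3 to 14 cells per library limit all group results.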

Other observations

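The light chain genes other than the leading Igkc together held 10% or more of the light chain UMIs in 4 of the 54 cells. An IgA cell of control replicate 1 held 5363 UMIs of Igkc and 2065 of Iglc2. An IgA cell of control replicate 3 held 6746 of Igkc and 1715 of Iglc3, and an IgA cell of p16-DTR replicate 3 held 10528 of Igkc and 1777 of Iglc1. The last, an IgM cell of p16-DTR replicate 2 with 8515 of Igkc and 913 of Iglc3, was among the barcodes with markers of other cell types.

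Heavy chain UMIs of other classes were also seen. In the 28 IgA cells Ighm was seen in 12 (at most 38 UMIs), Ighg2b in 7 (at most 65) and Ighg1 in 1 (50). In the 21 IgM cells Igha was seen in 5 (at most 4), Ighd in 6 (at most 11) and Ighg3 in 3 (at most 32). Endothelial barcodes, at a lower depth (median 16384 UMIs in p16-DTR and 16364 in control), held such UMIs too. Among them Ighm was seen in 12.1% and 15.4%, and Igha in 7.33% and 4.50%, in p16-DTR and control. The source of the UMIs of other classes was not tested.

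Trp53inp1, a p53 target, stood at 8.67 to 14.3 UMIs per 10000 in plasma cells of the 6 libraries and at 1.00 at the median in B cells. It was detected in all 54 plasma cells, and Sesn1 and Cdkn1b of the same list stood below their B cell levels (ratios of 0.427 and 0.617).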
